A study of Mus musculus with 16 samples.

Results

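The peaks described here are those that lie at the edges of genes. They are all peaks of an Omni-ATAC count table whose middle was within 1000 bp of either end of a protein-coding gene, by the gene spans of RefSeq on the mouse build mm10. The rule used positions only and no measured value. It took 17727 of 82188 peaks (21.57%), near the ends of 12008 genes. Each peak is 501 bp wide, so levels can be set side by side per length. Of the 17727 peaks, 12643 were nearer a gene start, 1551 were nearer a gene end, and 3533 lay at a gene whose strand was not known here. Peaks near the starts of genes on both strands numbered 1390, and 569 peaks were near a start and an end.

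Omni-ATAC marks open chromatin by letting a transposase cut accessible DNA and insert sequencing adapters there. The 16 libraries came from spleens of C57BL/6 mice aged 8 to 10 weeks, in 4 groups of 4. WT CB and WT CC carried the genotype Smarca4+/+, and HET CB and HET CC carried Smarca4+/-. CB and CC are read here as centroblast and centrocyte, the germinal center B cells of the dark and of the light zone. The labels give neither a sort gate, nor the altered part of Smarca4, nor any other allele, nor whether replicates are separate mice. The p-values therefore measure the spread between these libraries, which may be technical.

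A promoter, the stretch just upstream of a gene start, is where general transcription factors and RNA polymerase assemble, and in active genes it is kept free of nucleosomes. Chromatin past the start, inside the transcribed part, is more often nucleosomal, and the region past a gene end holds sites where transcription stops. Smarca4, also called BRG1, is an ATPase of the BAF chromatin remodelling complex, which slides and evicts nucleosomes. Germinal center B cells divide and mutate their antibody genes in the dark zone and are selected on antigen in the light zone, from where they leave as memory B cells or plasma cells.

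The 4 promoters below belong to peaks on which the results turn. Arrdc4 had the largest rise from CB to CC in WT among the peaks above the median accessibility whose libraries did not overlap. Sox4 rose from CB to CC and was lower in HET CC than in WT CC. Gpr183 was also lower in HET CC, and Fgf22 was higher there. Each line is the 250 bases before the gene start in RefSeq on GRCm38.p6, which is mm10, read 5′ to 3′ on the gene's strand. Capitals mark the motifs found on either strand: CCAAT (bound by NF-Y), GGGCGGG (SP and KLF factors), CACGTG (the E-box) and GGAAGT (the ETS core). A match is a description of letters, not a bound site.
Arrdc4: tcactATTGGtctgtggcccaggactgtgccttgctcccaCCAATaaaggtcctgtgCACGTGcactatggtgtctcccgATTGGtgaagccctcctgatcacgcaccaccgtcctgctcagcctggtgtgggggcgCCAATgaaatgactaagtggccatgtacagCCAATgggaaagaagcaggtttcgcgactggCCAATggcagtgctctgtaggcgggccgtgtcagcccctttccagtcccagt
Sox4: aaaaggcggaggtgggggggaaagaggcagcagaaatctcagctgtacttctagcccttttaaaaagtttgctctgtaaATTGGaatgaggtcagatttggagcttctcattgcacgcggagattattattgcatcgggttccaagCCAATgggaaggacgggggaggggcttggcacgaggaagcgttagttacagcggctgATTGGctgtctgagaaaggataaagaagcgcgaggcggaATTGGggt
Gpr183: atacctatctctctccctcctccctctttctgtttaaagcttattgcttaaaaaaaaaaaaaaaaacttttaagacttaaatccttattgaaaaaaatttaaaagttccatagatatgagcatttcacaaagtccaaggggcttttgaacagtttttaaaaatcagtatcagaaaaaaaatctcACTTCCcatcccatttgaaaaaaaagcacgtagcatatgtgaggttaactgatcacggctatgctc
Fgf22: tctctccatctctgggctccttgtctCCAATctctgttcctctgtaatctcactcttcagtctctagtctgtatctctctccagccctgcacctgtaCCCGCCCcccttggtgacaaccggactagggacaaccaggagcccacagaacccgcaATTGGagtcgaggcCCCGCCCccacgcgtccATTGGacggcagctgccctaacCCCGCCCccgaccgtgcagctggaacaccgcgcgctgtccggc
The Arrdc4 promoter is at chr7:68749239-68749488 on the minus strand and holds 6 copies of CCAAT and 1 E-box. That of Sox4 is at chr13:28953700-28953949 on the minus strand and holds 4 copies of CCAAT. That of Gpr183, at chr14:121965194-121965443 on the minus strand, has 1 GGAAGT and no CCAAT. That of Fgf22, at chr10:79754859-79755108 on the plus strand, holds 3 copies each of CCAAT and GGGCGGG. Over all 32841 promoters of the RefSeq table, CCAAT was found in 37.4%, GGGCGGG in 25.6%, CACGTG in 7.15% and GGAAGT in 23.8%, in the window that also takes in the first 50 bases of the gene.

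Depth went with the cell label and, within CC, with the genotype. The 8 CB libraries totalled 31696941 to 51011923 counts, the 4 of WT CC 3494356 to 3750936, and the 4 of HET CC 5310327 to 7474760. The median peak had 22 counts in the shallowest library and 347 in the deepest. Pairs of CB libraries of 1 group correlated across peaks at 0.989 to 0.995 and pairs of CC libraries at 0.909 to 0.95. The part of depth in the comparisons of CC with CB, and of HET CC with WT CC, was not tested beyond thinning every library to the smallest total.

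The labelled cells were checked at peaks near the ends of B cell genes. The peaks of Cd79a, Cd79b, Ms4a1, Pax5, Ebf1, Cd22 and Cr2 had group means of 8.65 to 51.9 CPM in all 4 groups. CPM are counts scaled to a common library size, by each library's counts in all peaks and its TMM factor. Markers of other cell types were not at 0. The summed peaks of the T cell list held 108 to 121 CPM over the WT CB libraries and 106 to 114 over those of HET CB. In WT CC they held 192 to 229 and in HET CC 155 to 195. Those of the NK cell list held 31.7 to 37.7, 31.8 to 33.5, 47.2 to 60.7 and 43.9 to 64.2 CPM in the same order. Myeloid peaks held 178 to 193, 180 to 190, 202 to 215 and 211 to 237 CPM. Stromal peaks held 143 to 146, 138 to 143, 188 to 235 and 164 to 194 CPM. For all 4 of these lists the ranges of both CC groups lay above those of both CB groups. The erythroid and megakaryocyte list, read on 5 of 12 genes, did not follow this. It held 73.3 to 78.3, 75.8 to 79.9, 63.4 to 78.6 and 74.1 to 82.4 CPM in the same order. The stromal list includes Vim, which is also in the memory B cell list used below. At the start of Cd3g, a part of the T cell receptor complex, the mean was 0.957 CPM in WT CB, 9.44 in WT CC, 0.714 in HET CB and 4.95 in HET CC. The T cell list is read on 15 of its 21 genes and the NK list on 7 of 12. In bulk libraries such as these, fewer cells of a type and less accessibility per cell cannot be told apart.

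The comparison of CC with CB asks how accessibility at gene edges differs between the germinal center states. A peak was called where its p-value in edgeR's quasi-likelihood test, adjusted by Benjamini-Hochberg over all 82188 peaks, was below 0.05. In WT, 5784 of the 17727 peaks near gene ends (32.6%) were called higher in CC and 4220 (23.8%) lower, beside 30.2% and 27.7% of all peaks (57.9% in either direction). In HET, 5081 (28.7%) were higher and 5029 (28.4%) lower, beside 30.8% and 28.1% (58.8% in either direction). The totals were therefore near the background, and the position within the gene edge separated the calls much more. Of the WT calls, 4550 higher peaks were also called higher in HET, which is 78.7% of the WT and 89.5% of the HET calls. Shared lower calls numbered 3445, 81.6% of those in WT and 68.5% of those in HET, and 4 peaks were called in opposite directions.

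Peaks that covered the start, with their middle at most 250 bp from it, rose more often than they fell. In WT, 44.0% of these 6717 peaks were called higher in CC and 16.2% lower, with a median log2 change of 0.16. Among the 5926 peaks farther from the start, up to 1000 bp,, 22.8% were higher and 31.2% lower, with a median of -0.11. In HET the same groups gave 37.8% higher and 21.3% lower over the start, and 19.7% higher and 36.4% lower around it. Peaks nearer a gene end resembled the flanking peaks, with 21% higher and 28.6% lower in WT and 23.0% and 29.3% in HET. Peaks between starts on both strands had 34.7% higher and 22.7% lower in WT.

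The pattern was not symmetric around the start. In WT, 59.0% of the 1070 peaks centred 300 to 100 bp upstream were higher and 12.8% lower, with a median log2 change of 0.30. From 100 bp upstream to 100 bp downstream, 42.1% of 5060 peaks were higher and 16.6% lower. From 300 to 1000 bp inside the gene, 18.6% of 4069 peaks were higher and 33.8% lower, with a median of -0.15. The upstream flank from 1000 to 300 bp was near balance, with 28.6% of 1412 peaks higher and 27.1% lower. Scaling by total counts left the order of these windows, at 54.1% higher just upstream and 17.1% inside the gene. Loess scaling, which removes for each library any smooth trend of the ratio with average accessibility, gave 37.8% higher and 17.2% lower just upstream, and 21.4% higher and 20% lower inside the gene. The order of the windows thus changed under loess scaling. The flank from 1000 to 300 bp upstream was no longer near balance in WT, with 455 peaks higher and 254 lower. Its 32.2% higher and median log2 change of 0.09 lay above the 30.9% and 0.06 from 100 bp upstream to 100 bp downstream. The median difference between start-covering and flanking peaks went from 0.27 to 0.05 in WT and from 0.22 to 0.06 in HET under loess scaling.

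**Figure D1:**
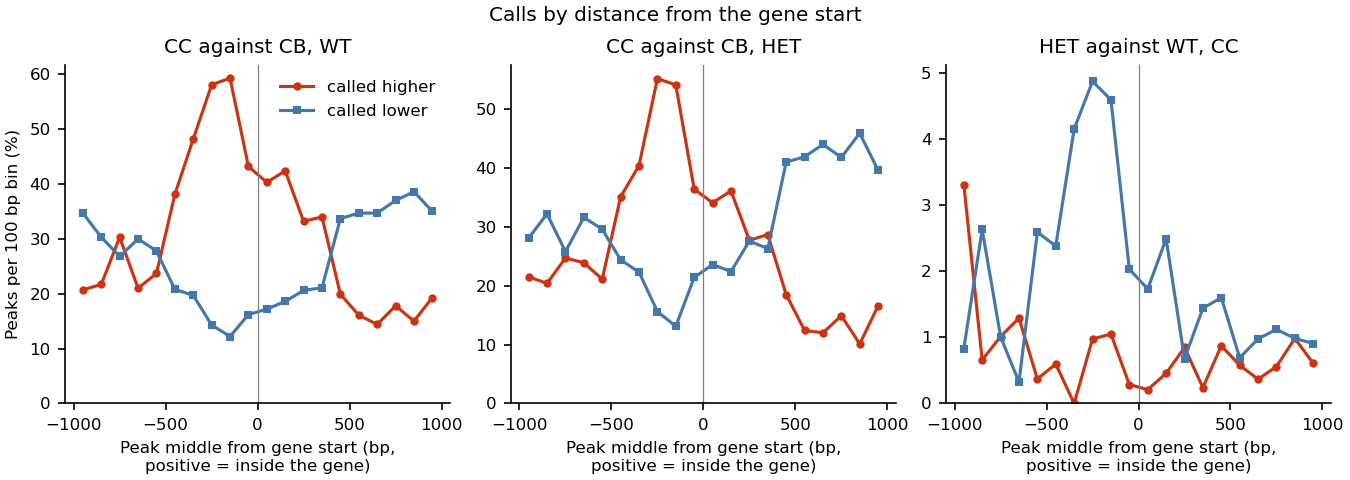
Percent of peaks called higher (red circles) and lower (blue squares) by edgeR in bins of 100 bp, against the distance of the peak middle from the gene start in bp, with positive distances inside the gene. From left to right the panels show CC against CB in WT, CC against CB in HET, and HET against WT in CC. Higher calls peak just upstream of the start in both genotypes, where 59.0% of WT peaks between 300 and 100 bp upstream were higher in CC.

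Accessibility itself went with the direction of the calls. All peaks were split into quintiles of average accessibility. In the highest, 43.2% of 9029 peaks near gene ends were higher in WT CC and 18.4% lower, beside 23.0% and 43.6% of the other peaks of that quintile. Peaks over a start in that quintile were higher in 48.6% and lower in 13.3%, and flanking peaks in 34.1% and 26.1%. In the next quintile, 11.2% of the peaks near gene ends were higher and 40.6% lower. In the quintile with the lowest average, 68.5% of 957 peaks near gene ends were higher and 3.45% lower, and 62.7% and 3.99% of the others. This lowest quintile held 2.35% of the counts in WT CB and 5.48% in WT CC, and 2.19% in HET CB and 4.95% in HET CC.

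**Figure D2:**
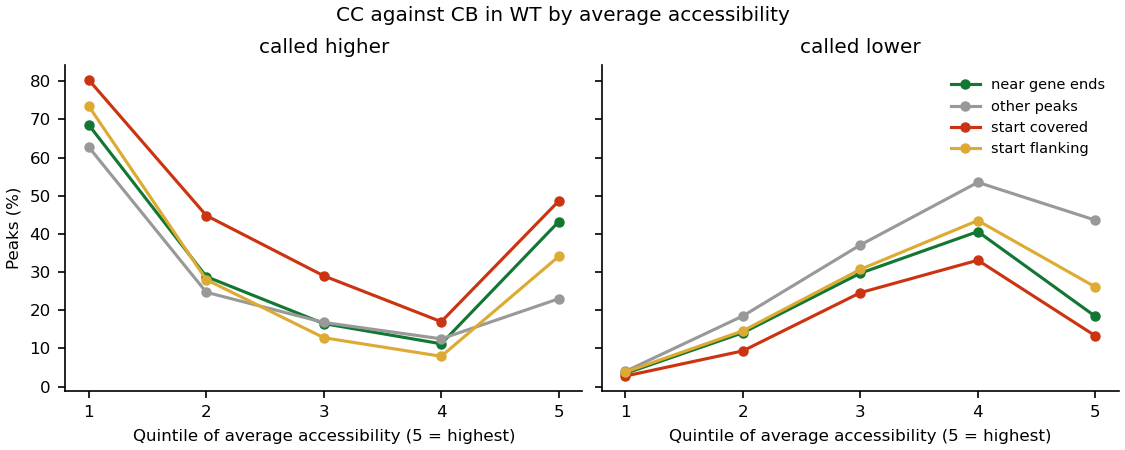
Percent of peaks called higher (left) and lower (right) in CC against CB in WT, by quintile of average accessibility, for peaks near gene ends (green), other peaks (grey), start-covering peaks (red) and start-flanking peaks (yellow). In the highest quintile 43.2% of peaks near gene ends and 23.0% of the other peaks were higher, and in the lowest quintile most peaks of both kinds were higher.

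The edge of the rule at 1000 bp had no visible step. The 742 peaks in the last 100 bp inside the limit were higher in 20.5% and lower in 31.8% in WT, with a median log2 change of -0.16. The 667 peaks in the first 100 bp outside it were higher in 23.2% and lower in 31.8%, with a median of -0.12. Of the peaks outside the rule, 2046 covered another start annotated in RefSeq, and 39.7% of these were higher and 20.3% lower in WT.

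Summed over peaks, the gene edges took a larger share of each CC library. In WT CB the peaks near gene ends held 42.14%, 41.74%, 41.99% and 41.59% of all counts, and in WT CC 45.79%, 45.71%, 45.24% and 44.99%. In HET CB they held 42.01%, 42.77%, 42.57% and 42.56%, and in HET CC 44.89%, 44.3%, 44.84% and 44.36%. All 8 CC libraries lay above all 8 CB libraries. CC exceeded CB by 3.57 percentage points in WT and 2.12 in HET (exact two-sided permutation test, n = 4 per group, p = 0.0286 for each, the smallest that 4 against 4 allows, adjusted p = 0.0357 over 5 comparisons). The peaks over starts rose from 20.78% ± 0.0523 (SD, n = 4) to 23.76% ± 0.315 in WT and from 21.1% ± 0.159 to 23.15% ± 0.291 in HET (exact permutation adjusted p = 0.0357 for each). The flanking peaks held 11.91% in WT CB and 12% in WT CC (exact permutation p = 0.629). Peaks nearer a gene end fell from 1.53% to 1.39% in WT and from 1.53% to 1.43% in HET (exact permutation adjusted p = 0.0476 for each).

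**Figure D3:**
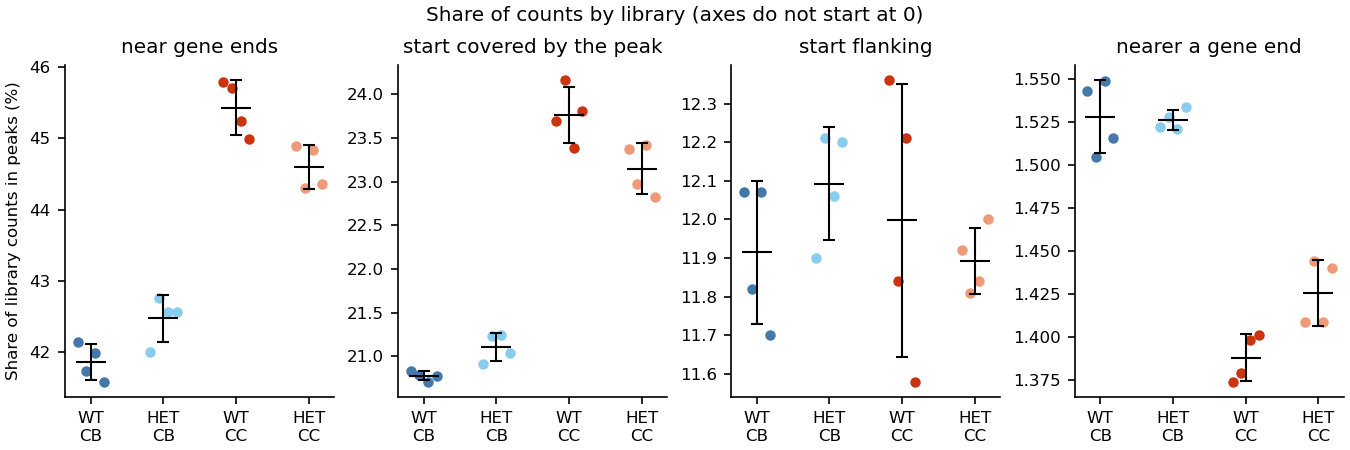
Share of each library's counts, in percent, in all peaks near gene ends and in start-covering, start-flanking and end-side peaks, with 1 point per library and the mean and SD of 4 libraries per group in black. The axes do not start at 0. In the first panel the 8 CC libraries lie between 44.3% and 45.79% and the 8 CB libraries between 41.59% and 42.77%.

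Peaks of 1 gene did not always move together. Of 6515 genes with at least 2 peaks near their ends, 818 had calls in both directions in WT. For 3980 genes with a peak over the start and another in the 1000 bp around it, the start peak had the higher log2 change in 3193 genes in WT and 3136 in HET, by a median of 0.34 and 0.28. Where both kinds of peak were called in WT, 438 genes had a higher start and a lower flank, and 24 the reverse. A further 607 genes were higher at both and 372 lower at both.

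Ubash3a, which dampens T cell receptor signals, was a gene with opposite edges. Its start-side peak held 0.793, 0.659, 0.813 and 0.915 CPM in WT CB and 5.0, 7.07, 5.07 and 5.2 in WT CC. Its end-side peak held 11.8, 12, 10.2 and 11.7 CPM in WT CB and 5.84, 2.94, 4.23 and 3.56 in WT CC. The first rose by 2.80 and the second fell by 1.46 on the log2 scale (edgeR adjusted p = 1.9e-10 and 1.18e-08), and the WT libraries did not overlap at either. Under loess scaling the first was at 1.32. Polr1a, the catalytic subunit of RNA polymerase I, gave -1.57 at 960 bp inside its start and 1.94 near its end. Crybb1 gave 1.62 at its start and -1.70 near its end, and Oxr1 2.78 and -0.65 at its boundaries. The call at the lower Oxr1 peak is lost without single libraries.

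Peaks were ranked among calls above the median accessibility whose compared libraries did not overlap. The lack of overlap was thus a condition for naming them, here and in the rankings by the same rule below, not a further result. The largest rises in WT were at Arrdc4, Etv1, Slc16a7, Lrp12, Sox4 and Dmac1. Arrdc4 encodes an arrestin-like adaptor. Its peak at chr7:68749047-68749547, 59 bp upstream of the start, held 2.48, 2.29, 2.36 and 2.99 CPM in WT CB and 36.1, 24.7, 37.5 and 22.7 in WT CC. In HET it held 1.89, 1.47, 1.57 and 1.4 CPM in CB and 31.1, 23.5, 27.2 and 19.6 in CC. Every CC library was above every CB library, and the log2 change was 3.58 ± 0.16 (SE) in WT and 4.00 ± 0.16 in HET (edgeR adjusted p = 2.04e-25 and 3.16e-28). This is the promoter with 6 CCAAT letters printed above. Etv1, an ETS transcription factor, rose by 3.21 in WT and 3.00 in HET at a peak 591 bp upstream. Lrp12, a lipoprotein receptor relative, rose by 2.90 and 2.87, and Dmac1, an assembly factor of mitochondrial complex I, by 2.39 and 2.13.

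Slc16a7, a transporter of pyruvate and lactate, and Sox4, a transcription factor of early lymphocytes, rose in both genotypes. The Slc16a7 peak at chr10:125389378-125389878 held 4.57, 4.74, 5.0 and 4.8 CPM in WT CB and 43.6, 41.5, 38.9 and 48.2 in WT CC. In HET it held 2.59, 2.15, 2.65 and 2.49 CPM in CB and 35.3, 21.6, 31.0 and 21.4 in CC. The 4 groups do not overlap, and the log2 change from CB to CC was 3.17 ± 0.13 in WT and 3.45 ± 0.14 in HET (edgeR adjusted p = 5.45e-27 and 2.96e-28). The Sox4 peak at chr13:28953510-28954010 held 6.76, 8.44, 8.03 and 6.65 CPM in WT CB and 38.1, 39.7, 50.2 and 47.6 in WT CC. In HET it held 6.43, 6.3, 6.07 and 4.88 CPM in CB and 35.9, 17.8, 31.5 and 24.5 in CC. CC lay above CB in every library, by 2.56 ± 0.14 in WT and 2.19 ± 0.13 in HET. In HET the rule also named Tsc22d1, which rose by 2.45, and Mitf, a transcription factor, which rose by 2.33.

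Falls of similar rank in WT were at Apex2, Zdhhc4, Atl1, Slamf7, Hsph1 and Mnd1, with log2 changes from -2.40 to -2.13. Slamf7, a receptor carried by plasma cells, had a peak at chr1:171652693-171653193, 94 bp inside its start. It held 19.9, 22.5, 20.1 and 19.8 CPM in WT CB and 2.5, 2.94, 4.51 and 8.21 in WT CC. In HET it held 20.2, 20.6, 20 and 20.1 CPM in CB and 4.82, 6.46, 5.29 and 7.76 in CC. It fell by 2.17 in WT and by 1.72 in HET, with no overlap of CC and CB. Mnd1, a partner in meiotic recombination, fell by 2.13 in WT and by 1.92 in HET at a peak 994 bp inside its gene. The falls rest on few CC reads, with 9 counts at Slamf7 and 2 at Hsph1 in the lowest library.

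**Figure D4:**
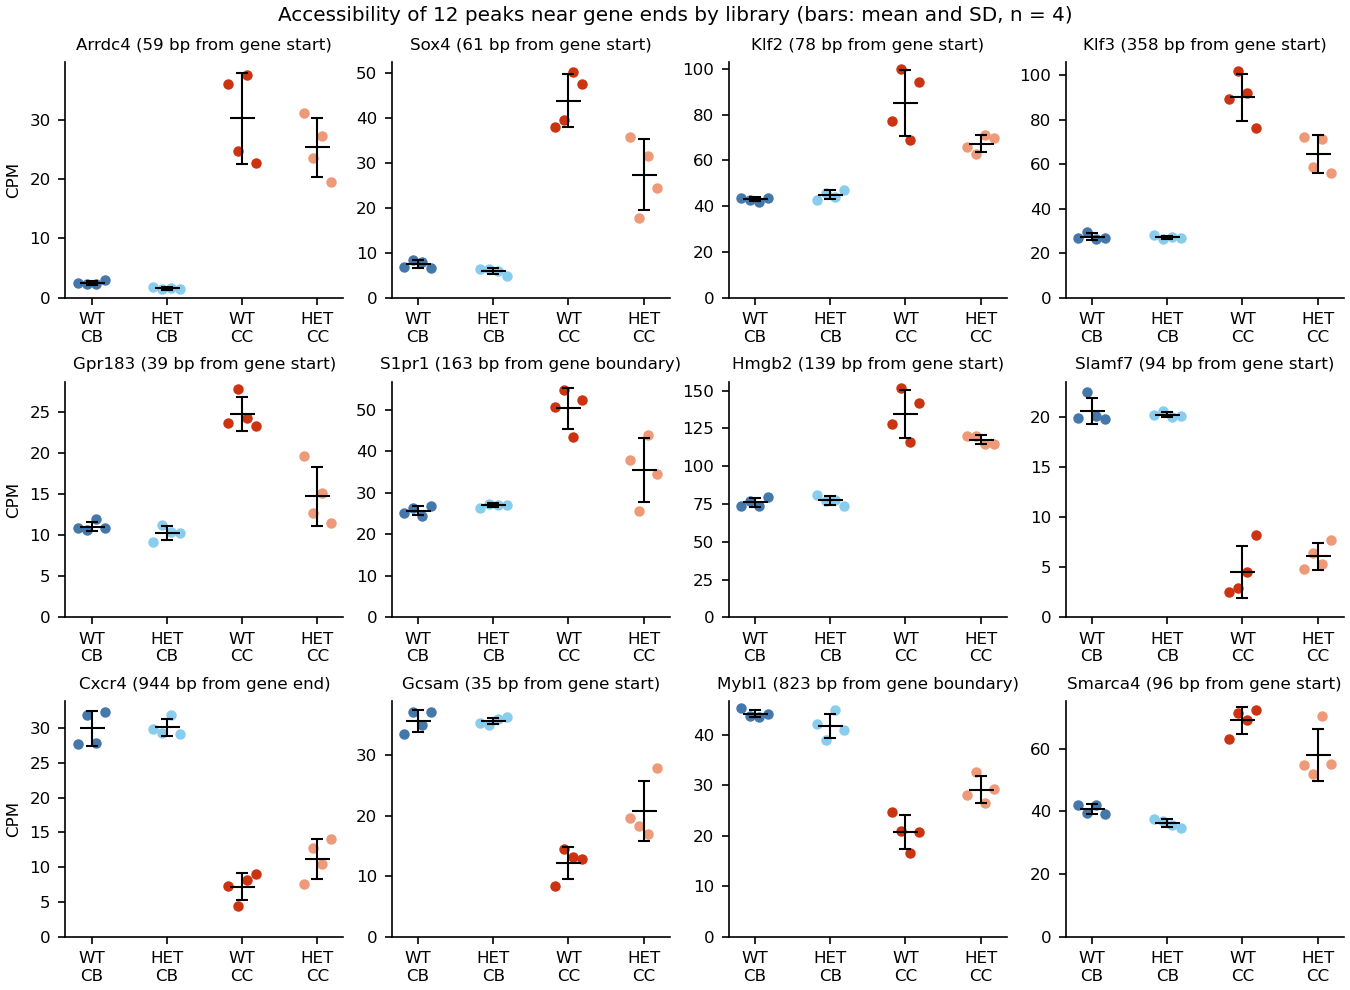
CPM of 12 peaks near gene ends in each of the 16 libraries (points, axes from 0), with the mean and SD of 4 libraries per group in black. Arrdc4, Sox4, Klf2, Klf3, Gpr183, S1pr1, Hmgb2 and Smarca4 are higher in WT CC than in WT CB, and Slamf7, Cxcr4, Gcsam and Mybl1 are lower. For Gcsam and Mybl1 the HET CC libraries lie between the CB and the WT CC libraries.

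The 5 peaks with the highest mean were at Ripk2, Hjurp, Opn3, Pdcd10 and Pja2. Ripk2, a kinase downstream of NOD receptors, held 111, 117, 107 and 116 CPM in WT CB and 245, 238, 242 and 249 in WT CC, without overlap. It rose by 1.11 ± 0.05 in WT and by 0.93 ± 0.05 in HET (edgeR adjusted p = 6.95e-26 and 1.43e-23). Pdcd10 rose by 0.92, Pja2 by 0.98, Opn3 by 0.83 and Hjurp, a centromere histone chaperone, by 0.30 in WT. Under loess scaling Hjurp was at -0.60 and called lower (edgeR adjusted p = 3.09e-15), so its direction depends on the scaling. Opn3 was at -0.04 without a call (edgeR adjusted p = 0.474). Ripk2 was at 0.18, Pja2 at 0.16 and Pdcd10 at 0.09 there, and Pdcd10 lost its call (edgeR adjusted p = 0.0847).

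Gene lists were read at the peaks near their members' ends, and lists were chosen with earlier results of these data known. Memory B cell genes stood highest among the B cell lists. Of 31 peaks at 17 genes, 27 were higher in WT CC and 3 lower, with a median log2 change of 0.97, where all peaks near gene ends had 0.03 and all peaks -0.01. In HET 26 were higher and 4 lower, with a median of 0.59. Klf3, a transcription factor of resting B cells, held 26.9, 29.7, 26.4 and 27.0 CPM in WT CB and 89.5, 102, 92.2 and 76.3 in WT CC. It rose by 1.71 in WT and by 1.25 in HET, with no overlap in either. Klf2, a regulator of lymphocyte trafficking, rose by 0.99 and 0.58, and by 0.64 in WT under loess scaling.

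Naive follicular genes share 5 genes with that list, and 15 of their 28 peaks were higher and 3 lower in WT. Ccr7, a receptor for lymph node chemokines, rose by 1.39 in WT and by 1.04 in HET. T cell markers had a larger median than either list, with 15 of 20 peaks higher, 3 lower and a median of 1.75 in WT, and NK markers with 7 of 10 higher and 2 lower. The lists were not matched for accessibility. Marker peaks at Cd3g, Zap70 and Nkg7 had means of 0.957, 0.817 and 0.879 CPM in WT CB. In the quintile of lowest average accessibility, most peaks of any kind were higher in WT CC, as given above. Klf2, Ccr7 and S1pr1 are also used by T cells, and the part of other cells in the rise of these lists was not tested.

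Light zone genes had 25 of 49 peaks higher and 8 lower in WT, with a median of 0.23, and 22 higher and 11 lower in HET. Nfkbia, the inhibitor induced by NF-kB, held 36.5, 40.1, 34.5 and 35.8 CPM in WT CB and 75.6, 78.3, 62.0 and 66.5 in WT CC at a peak 566 bp inside its start. It rose by 0.94 ± 0.08 in WT and by 0.69 ± 0.07 in HET (edgeR adjusted p = 2.39e-15 and 5.95e-12). Rel and Relb, NF-kB subunits, rose by 0.74 and 0.70 in WT, and by 0.25 and 0.26 under loess scaling.

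Germinal center genes went the other way, with 22 of 48 peaks lower and 8 higher in WT, a median of -0.22, and 24 lower and 10 higher in HET. Gcsam, a signalling adaptor restricted to germinal center B cells, has a peak at chr16:45610155-45610655, 35 bp from its start. It held 33.4, 37.0, 35.0 and 37.1 CPM in WT CB and 8.34, 14.4, 13.2 and 12.9 in WT CC. In HET it held 35.3, 35.0, 35.9 and 36.2 CPM in CB and 19.6, 18.3, 17.0 and 27.9 in CC. It fell by 1.55 ± 0.13 in WT and by 0.77 ± 0.10 in HET (edgeR adjusted p = 2.82e-15 and 7.09e-10), and the 2 CC groups did not overlap. Mybl1, a MYB family factor of germinal center cells, fell by 1.09 in WT and by 0.51 in HET, while Sugct rose by 0.78 and 0.66, and by 0.26 in WT under loess scaling.

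Dark zone genes were split, with 15 of 35 peaks lower and 9 higher in WT. Cxcr4, the receptor that holds cells in the dark zone, fell by 2.04 at a peak 944 bp past its end, from 27.7, 31.9, 27.9 and 32.3 CPM in WT CB to 7.23, 4.42, 8.17 and 9.03 in WT CC. Hmgb2, a chromatin protein of dividing cells, rose by 0.83 in WT and by 0.60 in HET, and by 0.17 in WT under loess scaling. B cell receptor genes had 17 of 43 peaks lower and 9 higher, and cell cycle genes 19 of 54 lower and 16 higher. Cdkn1b, which arrests the cell cycle, rose by 1.14, from 37.8, 42.3, 40.7 and 39.3 CPM to 79.2, 92.4, 78.1 and 102. Plasma cell genes had 12 of 29 peaks higher and 7 lower. Jchain, which joins antibody units, fell by 1.39, whereas Hsp90b1, a chaperone of the endoplasmic reticulum, rose by 0.71, and by 0.16 under loess scaling.

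Housekeeping lists had smaller medians than the memory B cell and naive follicular lists. The medians of ribosomal protein genes and splicing factors were near the 0.23 of light zone genes. Ribosomal protein genes had 26 of 54 peaks higher and 9 lower, and splicing factors 16 of 28 higher and 4 lower, with medians of 0.21 and 0.29 in WT. Rps23 rose by 0.93 and Snrnp70 by 0.96 at peaks just upstream of their starts. MYC and growth genes had 16 of 42 higher and 10 lower, and interferon response genes 13 of 29 higher and 3 lower. Proteasome genes had 11 of 43 higher and 12 lower, and oxidative phosphorylation genes 12 of 36 higher and 9 lower. The medians of the last 2 lists, -0.04 and -0.0057, turned to 0.08 and 0.02 under loess scaling. Antigen presentation genes are read on 3 of 17 genes, with 3 of 10 peaks higher and 4 lower. Myeloid markers had 9 of 17 peaks higher and 7 lower, stromal markers 6 of 10 higher and none lower, and erythroid markers 2 of 6 higher and 2 lower.

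**Figure D5:**
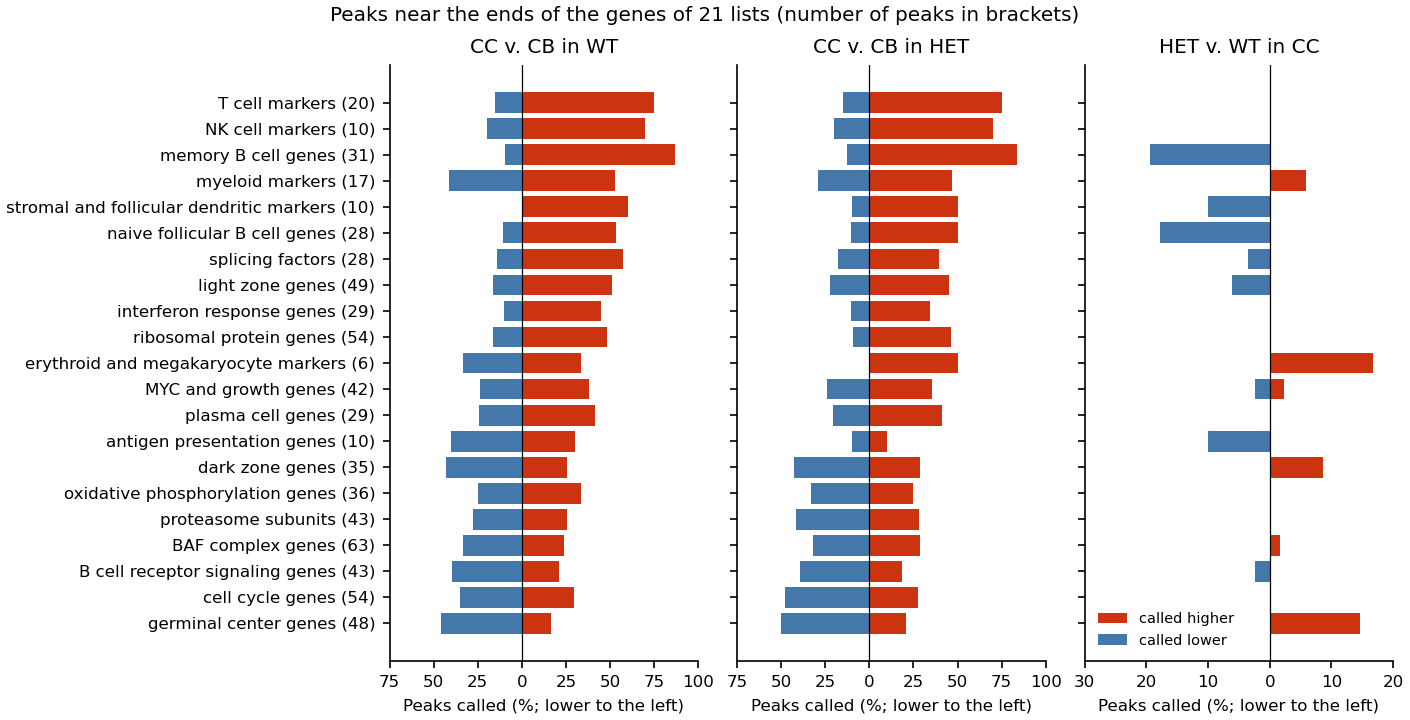
Percent of peaks near gene ends called higher (red, to the right) and lower (blue, to the left) for 21 gene lists, with the number of peaks in brackets, in CC against CB in WT, CC against CB in HET, and HET against WT in CC. Memory B cell genes have 27 of 31 peaks higher in WT CC and 6 lower in HET CC than in WT CC, and germinal center genes have 22 of 48 lower in WT CC and 7 higher in HET CC.

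BAF complex genes had 15 of 63 peaks higher and 21 lower in WT CC, with a median of -0.06 that turned to 0.0047 under loess scaling. Smarca4 has a peak at chr9:21615760-21616260, 96 bp upstream of its start. It held 42.1, 39.4, 42.0 and 39.2 CPM in WT CB, 37.5, 37.1, 35.8 and 34.8 in HET CB, 63.1, 71.5, 69.1 and 72.5 in WT CC and 54.7, 52.0, 70.4 and 55.1 in HET CC. It rose by 0.76 ± 0.08 in WT and by 0.67 ± 0.07 in HET (edgeR adjusted p = 9.93e-13 and 4.53e-12). HET against WT gave -0.17 in CB and -0.26 in CC (edgeR adjusted p = 0.365 and 0.0752). The HET CB libraries were all below the WT CB libraries, and the CC groups overlapped. A second peak, 473 bp inside the gene, gave -0.15 and -0.11 (edgeR adjusted p = 0.582 and 0.643). As the altered part of the gene is not given, these peaks do not check the genotype. Actl6a, an actin-related BAF subunit, rose by 0.83 in WT and by 0.39 under loess scaling.

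Promoter sequence was compared over the 6969 RefSeq promoters whose start was covered by one of the peaks, against all 32841 in the table. The median ratio of observed to expected CpG was 0.784 and 0.384, and the median GC content 61.7% and 52.7%. GGGCGGG was found in 52.9% and 25.6%, the longer ETS site CCGGAAGT in 8.74% and 3.89%, and the NRF1 site GCGCATGC in 6.03% and 2.71%. TATAAA, the TATA box, was less common, at 6.37% and 13.6%, as was the AP-1 site TGANTCA, at 4.02% and 7.81%. CCAAT was near its background, at 40.1% and 37.4%. All motifs were searched on both strands, and CCGGAAGT contains GGAAGT.

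Covered promoters as a whole were higher in WT CC in 43.2% and lower in 16.5%. The 609 with CCGGAAGT had 31.9% higher and 18.1% lower, and in HET 22.7% and 27.8%. The 420 with GCGCATGC had 50.2% higher and 10.5% lower in WT, and the 235 with the PU.1 site GAGGAAGT 48.5% and 9.79%. The 2793 with CCAAT had 47.7% higher and 15.4% lower. These shares are descriptions of overlapping sets of promoters, without a test.

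HET against WT addresses the effect of the Smarca4+/- genotype within 1 cell label. In CB 1 peak near gene ends was called higher and 8 lower, which is 0.00564% and 0.0451% of the 17727 peaks, beside 0.00243% and 0.127% of all peaks. Slc16a7 was lower at its boundary peak, whose libraries are given above, by 0.95 ± 0.13 on the log2 scale (edgeR adjusted p = 7.7e-05), and thinned to the smallest library it was not called (edgeR adjusted p = 0.265). Every HET CB library was below every WT CB library there. Susd6, a membrane protein of the p53 response, held 19.6, 19.3, 18.8 and 21.3 CPM in WT CB and 31.7, 22.7, 33.3 and 24.2 in HET CB, a difference of 0.50 (edgeR adjusted p = 0.00626). HET CB replicates 1 and 3 were the high ones, and the adjusted p was 0.0537 and 0.0916 without each. Tmc1 (-0.57), Izumo1r (-0.47) and Icam4 (-0.27) were lower with edgeR adjusted p of 0.041, 0.044 and 0.0373, and each lost its call without single libraries. The number of calls depended on the fit: with the 2 CB groups alone, 237 peaks were higher and 47 lower.

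The share of counts near gene ends did not pass the test between HET CB and WT CB, at 0.61 percentage points (exact two-sided permutation p = 0.0571, adjusted p = 0.0571). Over starts it was 0.32 points higher in HET CB (exact permutation adjusted p = 0.0357).

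In the fit over all 16 libraries, the calls in CC were more numerous than in CB and mostly lower. HET CC had 108 peaks near gene ends higher than WT CC (0.609%) and 314 lower (1.77%), beside 1.08% and 0.979% of all peaks (2.06% in either direction). Away from gene ends, 1.21% of 64461 peaks were higher and 0.762% lower. Of the 314 lower calls 157 lay over starts and 15 nearer a gene end, and of the 108 higher calls 28 and 18. The start-covering peaks were 37.9% of all peaks near gene ends. The median size of the higher calls was 0.70 on the log2 scale and that of the lower calls 0.33. From 300 to 100 bp upstream of the start 4.67% of peaks were lower and 1.03% higher. The order of CC and CB depended on the fit. With only the 2 compared groups fitted, CC had 7 higher and 31 lower, beside 237 and 47 in CB. In the fit over all 16 libraries, single CC libraries set the number of calls. There were 21 higher and 68 lower without HET CC replicate 2, 21 and 74 without HET CC replicate 4, and 46 and 145 without WT CC replicate 2. Without HET CC replicate 1 there were 184 and 472, and without HET CC replicate 3 185 and 527. The balance depends on the scaling, as total counts gave 163 higher and 173 lower and loess scaling 103 and 119, and just upstream of the start 2.9% and 0.748% were lower. The covered promoters of the lower calls, 158 in all, held CCAAT in 58.9% and GGGCGGG in 62.7%, with a median CpG ratio of 0.845.

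The share of counts near gene ends was 0.83 percentage points lower in HET CC than in WT CC (exact two-sided permutation test, n = 4 per group, p = 0.0286, adjusted p = 0.0357). The 4 HET CC libraries, from 44.3% to 44.89%, lay below the 4 WT CC libraries, from 44.99% to 45.79%. HET CC replicates 2 and 4 had the lowest shares and the highest totals of the group. Leaving out any 1 HET CC library gave differences of -0.931 to -0.736 points with an adjusted p of 0.0571 in the exact permutation test. Over starts the shares were 23.15% ± 0.291 and 23.76% ± 0.315 (SD, n = 4), with an exact permutation p of 0.0571. Peaks nearer a gene end held 0.04 points more in HET CC (exact permutation adjusted p = 0.0476).

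Among the lists, 6 of 31 memory B cell peaks were lower in HET CC and none higher, with a median of -0.27, where peaks near gene ends had -0.04. The 6 were at Gpr183, Ccr7, Vim, S1pr1, Klf3 and Klf2. Gpr183, a receptor for oxysterols that guides activated B cells, has its peak at chr14:121964904-121965404. It held 23.6, 27.7, 24.2 and 23.3 CPM in WT CC and 19.6, 12.7, 15.1 and 11.5 in HET CC, against 10.8, 10.6, 11.9 and 10.8 in WT CB and 9.17, 11.2, 10.4 and 10.2 in HET CB. The CC groups did not overlap, and the difference was -0.76 ± 0.15 (edgeR adjusted p = 0.00375). Klf3 held 72.4, 58.8, 71.4 and 55.9 CPM in HET CC, all below the WT CC libraries, a difference of -0.48 ± 0.08 (edgeR adjusted p = 0.00188). S1pr1, the receptor for exit from lymphoid tissue, held 50.6, 54.8, 43.4 and 52.3 CPM in WT CC and 37.8, 25.6, 44.0 and 34.6 in HET CC, overlapping in 1 library. Ccr7 gave -0.60, Vim, an intermediate filament, -0.54 and Klf2 -0.34, and Klf2 lost its call under loess scaling (edgeR adjusted p = 0.0767).

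Without HET CC replicate 2 the memory list had 4 lower peaks, and without the other CC libraries 5 to 7. Naive follicular genes had 5 of 28 peaks lower, 4 of them at genes shared with the memory list and 1 at Zfp318 (-0.41), and 2 without HET CC replicate 2. The T cell list had no call between HET CC and WT CC, with a median of -0.15, while its summed level ranged from 192 to 229 CPM over the WT CC libraries and from 155 to 195 over the HET CC libraries. The part of T cells in these differences was not tested.

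Germinal center genes had 7 of 48 peaks higher in HET CC and none lower. Among them were 2 peaks of Gcsam (0.77 and 0.63), 2 near the end of Irf8 (0.84 and 0.51), a factor of germinal center B cells, and 1 each at Basp1 (0.50) and Mybl1 (0.50). Mybl1 held 24.7, 20.9, 16.6 and 20.8 CPM in WT CC and 28.0, 32.7, 26.4 and 29.2 in HET CC, without overlap. All 7 calls held under scaling by total counts and under loess scaling. Only 2 were called without HET CC replicate 2 and 2 without HET CC replicate 4, against 4 to 10 without any of the other CC libraries. At the printed peaks of Gcsam and Mybl1 the HET CC libraries lay between the CB and the WT CC libraries. As the WT CC libraries enter both this comparison and that of CC with CB in WT, the 2 sets of values are not independent.

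Light zone genes had 3 of 49 peaks lower in HET CC, 2 at Nfkbia and 1 at Relb (-0.43), and none higher. The Nfkbia peak 180 bp past its end held 22.5, 21.5, 22.3 and 18.9 CPM in WT CC and 13.2, 13.2, 12.8 and 12.7 in HET CC, a difference of -0.71 ± 0.14 (edgeR adjusted p = 0.00528). The groups did not overlap. Sox4, shown above with 4 CCAAT letters, was lower by 0.70 ± 0.14 (edgeR adjusted p = 0.00492), and without HET CC replicate 2, its lowest library, the adjusted p was 0.053. Slc16a7 was lower by 0.67 (edgeR adjusted p = 0.00375). Of the other lists, Cd74, the invariant chain of antigen presentation, was lower by 0.34, Syk by 0.40, Srsf2 by 0.33 and Slc3a2 by 0.32. Each of these lost its call under another scaling. The edgeR adjusted p under loess scaling was 0.071 for Cd74, 0.0877 for Srsf2 and 0.119 for Slc3a2. By total counts it was 0.0608 for Syk and 0.0834 for Slc3a2. Another Cd74 peak, 536 bp inside the gene, gave -0.05 (edgeR adjusted p = 0.877). Dpf1, a BAF subunit of neurons, was higher by 1.14 and kept its call under both scalings.

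Among calls above the median accessibility whose CC libraries did not overlap, the largest rises in HET CC were at Hsph1, Rest, Tbc1d31, Mtus2, Fgf22 and Polr1a. Rest, a repressor of neuronal genes, held 2.78, 2.36, 5.64 and 5.47 CPM in WT CC and 6.54, 11.9, 6.23 and 14.6 in HET CC, with 11.7 to 13.9 in WT CB and 11.9 to 13.6 in HET CB. The CC groups did not overlap, and the difference was 1.30 ± 0.26 (edgeR adjusted p = 0.0055). Fgf22, a growth factor whose promoter is printed above, held 3.06, 2.94, 3.66 and 4.65 CPM in WT CC and 8.77, 6.6, 6.98 and 6.83 in HET CC, a difference of 1.01 ± 0.24 (edgeR adjusted p = 0.018). Hsph1, a heat shock chaperone, held 3.06, 0.589, 2.25 and 1.92 CPM in WT CC and 3.78, 7.65, 3.59 and 5.28 in HET CC. Its difference of 1.41 had an adjusted p of 0.0163 in edgeR, and of 0.117 without HET CC replicate 2. Fgf22 lost its call without WT CC replicate 1 (edgeR adjusted p = 0.052), without WT CC replicate 2 (0.0625) and with the 2 CC groups alone (0.118). Tbc1d31, Mtus2 and Polr1a also lost theirs without single CC libraries. In WT all 6 of these peaks were lower in CC than in CB. The WT CC libraries enter both comparisons, so the 2 sets of values are not independent. The rises are read on few counts, with 2 in the lowest library for Hsph1, 8 for Rest and 10 for Fgf22.

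The lower end of the same rule included Vangl2 (-0.77), Gpr183, Hspb9 (-0.73), Nfkbia and Sox4. Vangl2, a planar polarity protein, held 11.1, 11.8, 12.7 and 9.58 CPM in WT CC and 6.71, 7.52, 6.8 and 5.28 in HET CC, without overlap. It lost its call without HET CC replicate 4 (edgeR adjusted p = 0.0989) and without WT CC replicate 2 or 3 (0.0625 for each), and Hspb9 without HET CC replicate 4 (0.0931) and WT CC replicate 2 (0.0892).

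The interaction asks whether the effect of the genotype differs between CC and CB. It was called for 3 peaks near gene ends as higher and 16 as lower, which is 0.0169% and 0.0903%, beside 0.128% and 0.0316% of all peaks. Rest (1.32), Gcsam (0.77) and Mybl1 (0.58) had a higher HET minus WT difference in CC than in CB, with edgeR adjusted p of 0.0301, 0.033 and 0.0389. Pcbp3 (-0.65), Gm13286 (-0.61) and S1pr1 (-0.59) had a lower one, with adjusted p of 0.0189, 0.0146 and 0.0301 in edgeR. Pcbp3, an RNA-binding protein, held 18.8, 16.1, 16.2 and 17.0 CPM in WT CB, 17.2, 17.0, 17.4 and 16.3 in HET CB, 64.8, 68.0, 55.5 and 62.4 in WT CC and 49.5, 35.0, 45.1 and 30.9 in HET CC. The CB groups overlapped and the CC groups did not. For the share of counts near gene ends the interaction was -1.45 percentage points (exact permutation of the genotype within CB and within CC, 4900 arrangements, p = 0.00122, adjusted p = 0.00612). This permutation takes the CB and CC libraries as independent. If the replicate numbers mark pairs, it has too many arrangements and its p is too small. Of the 6 peaks named here, 5 lost their call without HET CC replicate 2 and also without HET CC replicate 4, with edgeR adjusted p from 0.0524 to 0.13 and from 0.0683 to 0.157. The same 5 also lost it without WT CC replicate 2, and Rest, Gcsam, Mybl1 and S1pr1 without several single CB libraries. Gm13286 kept its call when any 1 library was left out, but all 6 calls were lost with thinning to the smallest library. The balance of the calls depends on scaling, with 13 higher and 14 lower under total counts and 5 and 5 under loess scaling.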

How the data were processed

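The deposited table holds counts of reads, not normalized, in 82188 peaks of 501 bp for the 16 libraries, and each column's name matched 1 sample. According to the submitters' processing notes, the tools were FastQC, BWA and deepTools with R 4.2.1, on mm10. The peak caller and the counting method are not given in the sources used here.

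Peaks were assigned to protein-coding genes by the middle of the peak and the RefSeq gene spans on mm10. Strand came from the RefSeq promoter table, which gave it for 17492 of 21887 genes, and peaks at the others count as of unknown side. Group differences were tested in R 4.3.3 with edgeR 4.0.16 (robust quasi-likelihood fit, TMM scaling, 1 coefficient per group over all 16 libraries, Benjamini-Hochberg over all peaks, threshold 0.05). The filter on low counts removed 0 peaks. CPM were taken after TMM scaling. The share of a library's counts in a set of peaks was compared by exact two-sided permutation tests. The edgeR code was tested on simulated data. Counting error does not cover PCR duplicates, which the counts do not mark.

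Peaks are named by a rule: in each comparison the 6 largest changes each way (4 for the interaction) among calls above the median accessibility, and for the groups of 4 without overlap between libraries, at most 1 per gene. It adds 3 genes per list by the smallest p in CC against CB in WT, the 5 peaks of highest mean CPM, Smarca4, and the 5 genes with the most opposed calls. List members called between HET CC and WT CC were named after their values were seen. Some genes that the rule takes are not reported here. The members and the lists were chosen with earlier results of these data known.

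Motifs, CpG ratio and GC content were read in 300 bases of each RefSeq promoter, 250 before and 50 after the start. Alternatives were DESeq2 1.42.0 and its size factors, total counts, loess offsets from limma 3.58.1 (span 0.3), no filter, peaks above the median, the compared groups alone, a replicate block, thinning, other distances and leaving out each library. The window values under other scalings, and the position and list values under all of these but the distances, were added after the data were seen.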

Additional observations from a re-analysis of the deposited data

Results flagged for a closer look

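The effect of the genotype differed between CC and CB at 6 named peaks, by edgeR's interaction test with Benjamini-Hochberg adjustment over all peaks. HET minus WT was higher in CC than in CB at Rest by 1.32, at Gcsam by 0.77 and at Mybl1 by 0.58 on the log2 scale. It was lower in CC at Pcbp3 (-0.65), Gm13286 (-0.61) and S1pr1 (-0.59). The Gm13286 peak held 24.5, 25.8, 24.5 and 26.7 CPM in WT CB, 26.8, 28.0, 27.6 and 27.9 in HET CB, 52.8, 54.2, 65.7 and 49.0 in WT CC and 38.5, 42.2, 42.3 and 34.6 in HET CC, so that HET was above WT in every CB library and below it in every CC library. It lost its call only when libraries were thinned (edgeR adjusted p = 0.169), among the alternatives run. The other 5 also lost theirs without HET CC replicate 2, without HET CC replicate 4 and without WT CC replicate 2. Rest, Gcsam, Mybl1 and S1pr1 lost theirs without several single CB libraries as well.

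The share of counts near gene ends also differed in its genotype effect, by -1.45 percentage points (exact permutation p = 0.00122). For peaks over starts the difference was -0.938 points (exact permutation p = 0.000816). Both permutations took CB and CC libraries as independent, although the replicate numbers may mark pairs. No library stood apart from its group by Dixon's criterion in the 16 groups of shares tested. With 4 libraries per group this check can miss 2 libraries that lie apart together. HET CC replicates 2 and 4, at 44.3% and 44.36%, lay below replicates 1 and 3, at 44.89% and 44.84%.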

How the results depend on the processing

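In CC against CB, the percent of all peaks near gene ends called higher or lower stayed within 1.5 times under the alternatives run, except that thinning to the smallest library gave 16.3% lower in HET. Single positions and genes moved more under loess offsets, as given with their values. The genotype calls moved by more than 1.5 times under several settings. In the order higher then lower, percent of peaks near gene ends, HET against WT in CC gave 0.92 and 0.976 by total counts, 0.671 lower by loess offsets, 1.64 and 4.86 by DESeq2, 0.952 and 3.0 above the median CPM, 0.0402 and 0.178 with the compared groups alone, and 0.35 and 0.792 thinned. HET against WT in CB gave 0.372 and 0.254 by DESeq2, 1.34 and 0.265 with the compared groups alone, 0.0282 lower with the replicate block, 0.0 higher within 500 bp, and 0.0 and 0.0 thinned, where edgeR left 418 higher and 274 lower peaks at an unadjusted p under 0.05. The interaction gave 0.0733 higher by total counts, 0.0282 and 0.0282 by loess offsets, 0.378 and 1.72 by DESeq2, 0.0834 and 0.202 above the median CPM, and 0.0 and 0.0 thinned, with 408 and 949 peaks at an unadjusted p under 0.05. It gave 0.0085 higher within 500 bp and 0.0353 higher within 2 kb. The share of counts gave 0.478 points for HET against WT in CB within 500 bp, which passed the test, and -0.769 in CC within 2 kb, which did not.

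Same-numbered CB and CC libraries of 1 genotype had deviations that correlated at only 0.0324 to 0.0714. All 4 WT and 3 of 4 HET numbers correlated best with themselves, so the numbers may mark pairs. The labels do not say so, and neither the main fit nor the permutation tests of shares paired them. With the replicate block the interaction gave 0.0282% lower, and with a block within each genotype 0.0% higher and 0.0226% lower. Under the block within each genotype Rest, Gcsam and S1pr1 (edgeR adjusted p = 0.0648 for each) and Mybl1 (0.0883) lost their interaction calls. Mybl1 also lost its call with the replicate block (edgeR adjusted p = 0.0653).

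Leaving out 1 library gave ranges of 0.0 to 0.0169% higher and 0.0113 to 0.0564% lower in CB, 0.118 to 1.04% and 0.384 to 2.97% in CC, and 0.0 to 0.124% and 0.0113 to 0.389% for the interaction. The share of counts ranged from 0.514 to 0.766 points in CB and from -0.982 to -0.715 in CC. Under loess offsets the change from CB to CC in WT was called lower at Hjurp (-0.596, edgeR adjusted p = 3.09e-15) and Malt1 (-0.16, edgeR adjusted p = 0.00782). It fell to near 0 without a call at Opn3 (-0.0385), Bcl10 (-0.0188) and B2m (-0.012), with edgeR adjusted p of 0.474, 0.77 and 0.89. The cause of these differences was not tested. The CC depth, a median of 22 counts per peak in the smallest library, limits what can be called there.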
